A study of Caenorhabditis elegans with 2 samples.

Results

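The 10 genes described here are hlh-8, sem-2, let-381, fozi-1, mls-1, mls-2, ceh-34, sma-9, egl-15 and egl-17, out of 19973 protein-coding genes of the Caenorhabditis elegans annotation. They were chosen by name for their known parts in the postembryonic mesoderm and in the sex myoblasts, not by any value of these data. Earlier results of these data were known when they were chosen. For each gene, the peaks of CEH-20 were collected whose summit lay from 5 kb before the gene's start to 1 kb past its end, on assembly WBcel235 (ce11), which is called its window below.

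The study mapped the DNA bound by CEH-20 in whole worms by chromatin immunoprecipitation and sequencing (ChIP-seq). Its 2 samples were biological replicates 1 and 2 of 1 group. Both were L4 larvae, 49 hours old, of strain RW12211, synchronised as starved L1 larvae after bleaching. Both carried st12211[ceh-20::TY1::EGFP::3xFLAG] III, a CRISPR insertion that tags the ceh-20 gene itself, and sonicated chromatin was immunoprecipitated. The labels' description names an antibody against GFP, whereas their antibody field reads ceh-20. The sex of the animals was not collected. No sample of untagged animals was analysed here, so no background of the antibody stands beside the values. Since whole worms were used, the lists do not say in which cells a peak arose, and cells of the M lineage are few among the cells of a larva. A peak list holds no RNA levels, so the presence of these cells could not be checked against their markers. Only L4 larvae were sampled, so a missing peak says nothing of binding in the M lineage at earlier stages.

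The M mesoblast of C. elegans divides after hatching and gives body wall muscles, coelomocytes and the sex myoblasts, which migrate to the middle of the gonad and form the muscles of the vulva and uterus. CEH-20 is a homeodomain protein of the PBX family that binds DNA together with Hox proteins, among them LIN-39 and MAB-5, and with the Meis-type protein UNC-62. In this lineage CEH-20 and the Hox proteins are known to act through the promoter of hlh-8, and CEH-20 is required for normal M lineage divisions.

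The authors' conservative list, drawn from both replicates, held 2522 peaks with a median signal of 83.2. Signal is the value the authors gave for a peak's strength. Its scale is not stated, so peaks were ranked by it within 1 list only. These peaks had passed a threshold on the irreproducible discovery rate (IDR), which is low where a peak ranks alike in a pair of inputs. The lowest score in the conservative list corresponds to an IDR of 0.01. Replicate 1 had a thresholded list of its own with 1249 peaks, and replicate 2 one with 1490. The ranked list behind the conservative one, before any threshold, held 56499 peaks with a median signal of 22.5, and ranks and IDRs below are from it unless another list is named. The series has another ranked list, of 55701 peaks, which differed at some of the 10 genes as given below. Replicate 1 had 40237 and replicate 2 had 36837 ranked peaks. Numbers of reads were not among the files used here, so the depth behind a peak is unknown.

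Of the 10 genes, 3 had a conservative CEH-20 peak in their windows. These were sma-9 with 4 peaks, egl-17 with 1 and fozi-1 with 1. The other 7 genes, hlh-8 among them, had none. The share of 30% stands beside 18.2% of all 19973 protein-coding genes under the same rule, and 3 genes of 10 are too few to read a difference from this. In a larger thresholded list of 2632 peaks the same 3 genes held a peak, against 18.8% of all genes. In the list of replicate 1, 2 of the 10 genes held a peak, against 10.3% of all genes. In the list of replicate 2, again 2 of 10 held one, against 12.4% of all genes. Both times these were sma-9 and egl-17.

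The sequences of 101 bp centred on the summits of the strongest conservative peaks follow, since they show what the protein's peaks at these genes lie on. They were read from the RefSeq genome of WBcel235, on the plus strand, which is the coding strand of sma-9, egl-17 and fozi-1. In the 3 sequences of sma-9, capitals mark the letters GAGAGA on either strand, and, in the sequence with signal 74.2, the letters TGATNNAT on the minus strand, a site that PBX and Hox proteins are known to bind together. In the sequence of egl-17, capitals mark the bases that belong to a tRNA gene. In the sequence of fozi-1 none of the motifs searched was found, so it has no capitals.
sma-9, signal 189, chrX:10766270-10766370: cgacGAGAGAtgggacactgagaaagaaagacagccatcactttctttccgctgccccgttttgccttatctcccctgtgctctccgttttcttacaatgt
sma-9, signal 173, chrX:10771179-10771279: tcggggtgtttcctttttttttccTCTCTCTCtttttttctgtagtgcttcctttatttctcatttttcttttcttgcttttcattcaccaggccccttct
sma-9, signal 74.2, chrX:10772232-10772332: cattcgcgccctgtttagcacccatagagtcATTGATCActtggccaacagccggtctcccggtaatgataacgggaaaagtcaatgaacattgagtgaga
egl-17, signal 149, chrX:489877-489977: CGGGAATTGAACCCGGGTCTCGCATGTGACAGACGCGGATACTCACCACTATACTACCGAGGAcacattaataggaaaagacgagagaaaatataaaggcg
fozi-1, signal 67, chrIII:9291217-9291317: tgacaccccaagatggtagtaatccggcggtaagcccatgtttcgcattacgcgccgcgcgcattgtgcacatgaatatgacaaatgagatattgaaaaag

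The strongest CEH-20 peaks of the 10 genes lay at sma-9 (WBGene00004862, chromosome X, 10769282 to 10782973, plus strand). It encodes a zinc finger protein related to Schnurri, which patterns the M lineage along the dorsoventral axis and acts in the BMP pathway. One peak lay in intergenic DNA 2962 bp before the gene's start, at 10766162 to 10766477. Its signal of 189 ranked 178 of 2522, in the top 7.06% of the conservative list. In the replicates the same place had a signal of 105 (rank 147 of 40237 ranked peaks) in replicate 1 and of 98.1 (rank 163 of 36837) in replicate 2. It was present in the thresholded lists of both replicates, whose summits lay 55 bp and 63 bp from the conservative summit.

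The second sma-9 peak lay in an intron, 1947 bp into the gene, at 10771071 to 10771386. Since sma-9 has 6 annotated transcript starts, this summit also lay 1852 bp before an internal start. Its signal was 173 (rank 210), with 96.2 (rank 176) in replicate 1 and 72 (rank 362) in replicate 2. It too was in the thresholded lists of both replicates, and the replicate summits lay 5 bp and 2 bp away, so this summit was placed more closely than the upstream one.

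The remaining 2 sma-9 peaks overlapped by 116 bp in the same intron, with summits 3000 bp and 3200 bp into the gene, and were not independent of each other. The stronger had a signal of 74.2 (rank 1608 of 2522), below the list's median, and its summit lay 799 bp before an internal start. In the same place replicate 1 had a signal of 33.7 and replicate 2 one of 46.2. Neither value was in that replicate's thresholded list. The weaker had a signal of 20.3 (rank 2386) beside a q-value of 0.894, and overlapped the same replicate peaks as the stronger. A gene window with 4 or more conservative peaks occurred in 0.421% of all genes. The 4 of sma-9 include the overlapping pair. With overlapping peaks merged it had 3, and the share of genes with 3 or more is not given here.

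In the ranked list sma-9 had 27 summits, its 4 conservative ones included, a number reached by 0.456% of all genes. Its window was 19.7 kb long, against a median of 8.03 kb for all genes, and a longer window can hold more summits. The strongest of those below the threshold lay between the upstream peak and the gene's start. They had signals of 53.1, 50.9 and 39.7, with IDRs of 0.194, 0.0399 and 0.0199, at 1359 bp, 663 bp and 1800 bp before the start. The order by IDR was thus not the order by signal.

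**Figure D1:**
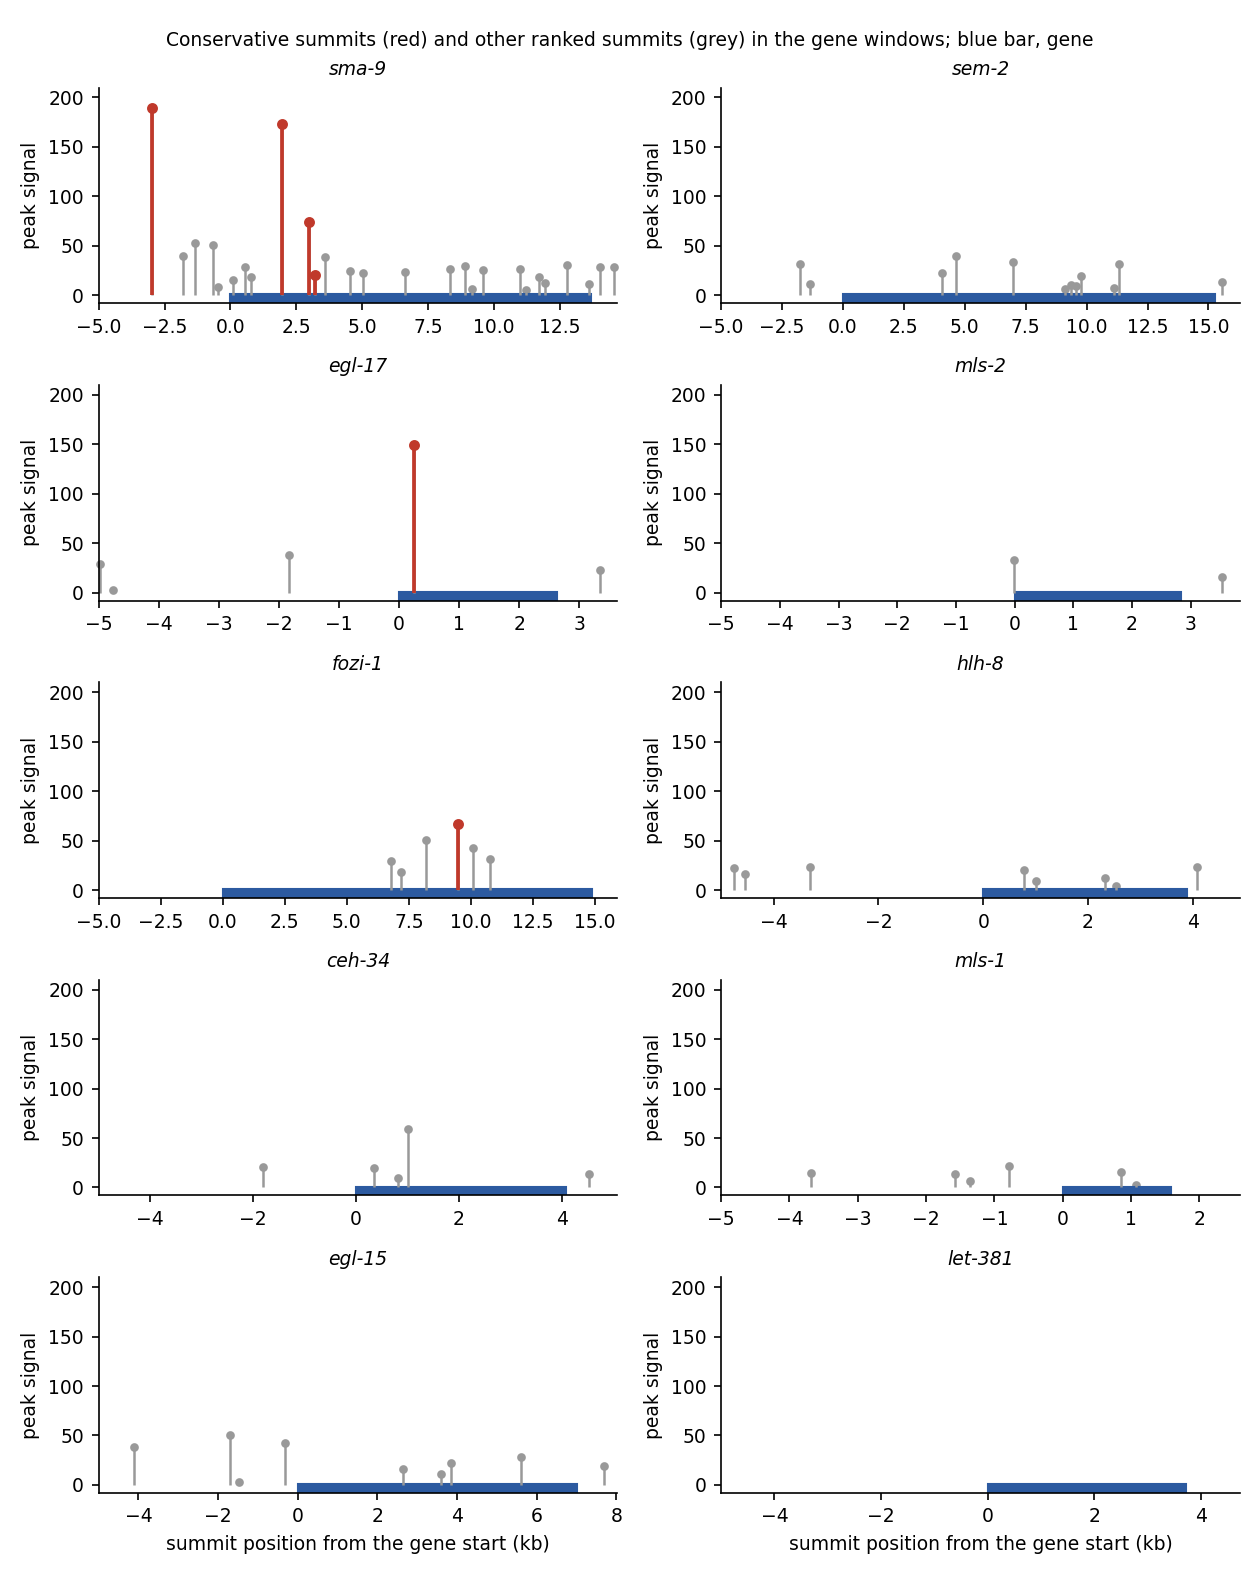
Distance from the start of the gene (kb, in the direction of transcription) against the signal of each ranked CEH-20 peak for the 10 genes, with 1 panel per gene. Red points are conservative peaks, grey points are other ranked peaks, and the blue bar is the gene. The 6 conservative peaks lie at 3 genes, with 4 of them at sma-9.

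The gene egl-17 (WBGene00001185, chromosome X, 489685 to 492318, plus strand) encodes a fibroblast growth factor that attracts the migrating sex myoblasts. Its one conservative peak lay at 489769 to 490084, with its summit in an intron 242 bp into the gene and 153 bp from an annotated transcript start. Its signal of 149 ranked 330 of 2522. The replicates gave 74.2 (rank 367) and 74.8 (rank 324), and both thresholded lists held it. The 2 replicates were nearly alike in rank, in the top 0.912% and the top 0.88% of their ranked lists.

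The summit at egl-17 lay inside a tRNA gene (WBGene00023035, 489868 to 489939, minus strand, 72 bp), of which 63 bases are in capitals in the sequence above. Of all 2522 conservative summits, 145 (5.75%) lay inside a tRNA gene, with a median signal of 89.7. The next ranked summit of egl-17, 1825 bp before its start, lay inside another tRNA gene, with a signal of 38.3 and an IDR of 0.696 (0.0674 in the ranked list of 55701 peaks). That place had a signal of 34.1 in replicate 1 and no overlapping ranked peak in replicate 2. Whether a peak there belongs to egl-17 or to the tRNA gene cannot be told apart from these lists. The part of the tRNA genes in the result was not tested. When peaks within 200 bp of a tRNA gene were left out, egl-17 had no conservative peak.

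The gene fozi-1 (WBGene00010453, chromosome III, 9281780 to 9296675, plus strand) encodes a zinc finger protein with a formin homology domain that specifies fates of M-derived body wall muscles and coelomocytes. Its conservative peak lay 9487 bp into the gene in an intron, at 9291109 to 9291424. Its signal of 67 (rank 1913 of 2522) was under the median of the list. In the replicates it had 34.6 (rank 2482) and 32.2 (rank 2434) and was in neither thresholded list. The summits of both replicates lay within 1 bp of the conservative one. Signal and rank at fozi-1 were thus lower than at the leading peaks of sma-9 and egl-17 in each replicate.

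The summit at fozi-1 lay inside the noncoding RNA gene K01B6.8 (9291225 to 9291315, minus strand, 91 bp), and the nearest protein-coding transcript start belonged to K01B6.4, 6178 bp away. Among all conservative summits, 402 (15.9%) lay inside a noncoding gene, against 2 of the 6 at the 10 genes. The part of the noncoding RNA gene in the result was not tested. A second ranked summit of fozi-1, 8196 bp into the gene, had a signal of 50.3 with an IDR of 0.0328 (0.141 in the ranked list of 55701 peaks), below the threshold.

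Of the 6 conservative peaks of the 10 genes, 3 were in the thresholded lists of both replicates and 3 in neither. Over the whole conservative list, 860 of 2522 peaks (34.1%) were in both and 876 (34.7%) in neither. The peaks in both were the leading 2 of sma-9 and that of egl-17. A peak absent from a replicate's thresholded list was still seen in its ranked list at each of the 6 places.

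**Figure D2:**
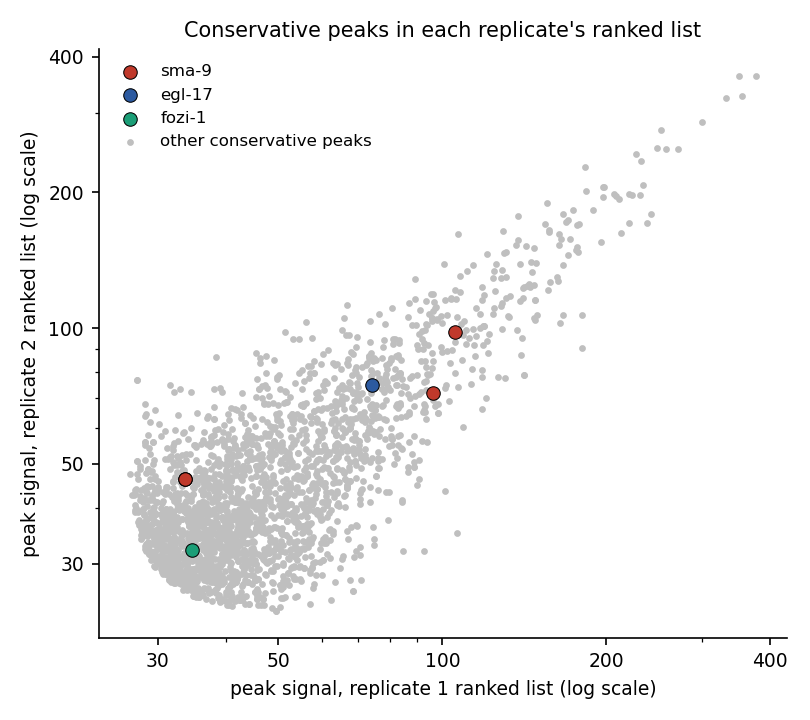
Signal of the ranked peak overlapping each conservative peak in replicate 1 (horizontal) and replicate 2 (vertical), both on log axes, for the 2476 of 2522 conservative peaks that have one in both replicates. Large points are the peaks of sma-9 (red), egl-17 (blue) and fozi-1 (green), and grey points are the other peaks. The leading 2 sma-9 peaks and the egl-17 peak lie along the middle of the cloud, and the fozi-1 peak at 34.6 and 32.2 lies at the lower left. The overlapping 2 sma-9 peaks share 1 point.

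Of the 7 genes without a conservative peak, ceh-34 (WBGene00000455, chromosome V, 5315496 to 5319577, minus strand) had the strongest ranked summit, in 1 of the series' ranked lists only. It encodes a homeodomain protein of the Sine oculis family that specifies nonmuscle mesoderm, the coelomocytes among it. Its best ranked summit lay 1011 bp into the gene in an intron, at 5318408 to 5318723, with a signal of 59.6 (rank 2687 of 56499) and an IDR of 0.0297. Replicate 1 had 36.7 (rank 2123) and replicate 2 had 21.1 (rank 7191), so the rank was less alike between the replicates than at fozi-1. The ranked list of 55701 peaks held no summit in the window of ceh-34, so this one is absent there.

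The gene egl-15 (WBGene00001184, chromosome X, 11016400 to 11023421, plus strand) encodes the fibroblast growth factor receptor through which sex myoblasts sense EGL-17. Of its 9 ranked summits 4 lay upstream. The strongest 3 were at 1703 bp, 332 bp and 4106 bp before the start, and the other, of signal 2.85, at 1467 bp. The strongest 3 had signals of 50.7, 42.8 and 38.4 with IDRs of 0.0929, 0.109 and 0.3, and the last of these lay nearer to the start of F58A3.3. In the ranked list of 55701 peaks the same 3 had IDRs of 0.28, 0.615 and 0.336. The first of them had 30.1 in replicate 1 and 18.1 in replicate 2. The receptor gene thus had no conservative peak, whereas its ligand gene egl-17 had one at a tRNA gene.

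The 101 bp at the best ranked summits of ceh-34 and egl-15 follow. In the ranked list of 56499 peaks these were the strongest by signal at the genes without a conservative peak. Each is on the coding strand of its gene (minus for ceh-34, plus for egl-15), from the same genome. Capitals mark the letters TGACAG on either strand, the core bound by Meis-type proteins, which occur at egl-15 8 bp from the summit and not at ceh-34. Of all ranked peaks, 3.76% held these letters within 50 bp of the summit.
ceh-34, signal 59.6, chrV:5318516-5318616: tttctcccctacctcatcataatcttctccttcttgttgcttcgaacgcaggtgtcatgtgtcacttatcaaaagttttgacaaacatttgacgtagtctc
egl-15, signal 50.7, chrX:11014647-11014747: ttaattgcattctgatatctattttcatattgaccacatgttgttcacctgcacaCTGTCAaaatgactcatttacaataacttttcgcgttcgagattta

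The gene sem-2 (WBGene00004771, chromosome I, 5204530 to 5219815, minus strand) encodes a SoxC transcription factor that promotes the sex myoblast fate. It had 12 ranked summits and no conservative peak. The best had a signal of 39.5 and an IDR of 0.626, 4629 bp into the gene, where it lay in a 5′ UTR and 32 bp from one of the gene's own transcript starts. Replicate 1 had 27.2 and replicate 2 had 11.7 there. The same summit had an IDR of 0.158 in the ranked list of 55701 peaks. The second by signal (33.6), 6997 bp into the gene in an intron, had an IDR of 0.362, and 0.347 in the list of 55701 peaks.

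The gene mls-2 (WBGene00003377, chromosome X, 4758804 to 4761640, minus strand) encodes an HMX homeodomain protein that controls cell divisions of the M lineage. Its best ranked summit lay 8 bp before its start with a signal of 32.5 and an IDR of 0.607. Replicate 1 had a signal of 18.2 there, and replicate 2 had no overlapping ranked peak. The ranked list of 55701 peaks held no summit in the window of mls-2. The gene mls-1 (WBGene00003376, chromosome III, 7460341 to 7461934, plus strand) encodes a T-box protein that specifies uterine muscle. Its best had a signal of 21.8, 787 bp before the start, and lay nearer to the start of fipr-18, 239 bp away. Neither replicate had a ranked peak there. In the ranked list of 55701 peaks its best was another one, of signal 16.1, 862 bp into the gene.

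The gene let-381 (WBGene00002601, chromosome I, 6320289 to 6324019, minus strand) encodes a forkhead protein of the FoxF and FoxC kind that specifies coelomocytes, upstream of ceh-34. In the ranked list of 56499 peaks it was the only one of the 10 genes without a summit in its window, where 83.1% of all genes had one. In that of 55701 peaks 3 of the 10 had none, let-381, mls-2 and ceh-34, where 82.9% of all genes had one. Each replicate's own ranked list held 1 summit in the window of let-381, with a signal of 22.8 at 2158 bp before the start in replicate 1 and of 13 at 3911 bp past it in replicate 2. These were different places. That of replicate 1 lay nearer to the start of F26B1.1, 444 bp away. That of replicate 2 lay in the 3′ UTR of hrpk-1, whose start was nearer at 2064 bp.

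The gene hlh-8 (WBGene00001953, chromosome X, 8116457 to 8120351, plus strand) encodes the worm's Twist protein, a basic helix-loop-helix factor of the undifferentiated M lineage and the sex myoblasts. Its 8 ranked summits were weak. The best had a signal of 23.3, beside a median of 22.5 for the whole ranked list, with an IDR of 0.832, and lay 3304 bp before the start in the coding sequence of K07E3.1. The next, of signal 23, had a lower IDR of 0.648 (0.825 in the ranked list of 55701 peaks). It lay 4072 bp past the start in the coding sequence of C02B8.12. Replicate 2 had 14.7 there, and replicate 1 had no overlapping ranked peak. Replicate 1 had its best at 211 bp into the gene (signal 16.6, rank 20026 of 40237). Replicate 2 had its best 1245 bp before the start in intergenic DNA (signal 17.4, rank 12023 of 36837). The best places of the replicates thus differed, and none passed a threshold.

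In the 5 kb before hlh-8 the letters TGATNNAT occurred 8 times, counting both strands and overlapping matches separately. All genes had a median of 4, and 97.7% had at least 1. At hlh-8 the pair nearest to the gene's start lay outside coding sequence, 1519 bp and 1417 bp before the start. Both are shown with their surroundings because hlh-8 is the gene through which CEH-20 is best known in this lineage. They are on the plus strand of the same genome, with capitals for the 8 matched letters, which read TGATNNAT on the minus strand.
hlh-8, 1519 bp upstream, chrX:8114922-8114962: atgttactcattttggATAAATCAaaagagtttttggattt
hlh-8, 1417 bp upstream, chrX:8115024-8115064: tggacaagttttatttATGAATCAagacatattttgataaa

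The nearest summit of the ranked list of 56499 peaks lay 1789 bp and 1891 bp from these matches at hlh-8. In the list of 55701 peaks a weak summit of signal 23 with an IDR of 0.825, 1210 bp before the start, lay 305 bp and 203 bp away. In replicate 2 the weak summit of signal 17.4 lay 270 bp and 168 bp away, and in replicate 1 the nearest summit, of signal 12.3, lay 484 bp and 586 bp away. The other 6 matches before hlh-8 lay 3248 bp or more before the start, and some lay near weak ranked summits. In the list of 56499 peaks the match at 3248 bp lay 60 bp from the summit of signal 23.3. Those at 4678, 4479 and 4477 bp lay 85, 72 and 74 bp from summits of signal 22, 16.5 and 16.5. Those at 4195 and 3619 bp lay 356 and 311 bp from a summit. In replicate 1 the match at 3248 bp lay 22 bp from a summit of signal 12.1. In replicate 2 its nearest summit lay 1999 bp away. Over the same 5 kb the other 9 genes had from 1 match (fozi-1) to 9 (let-381 and egl-15), with 8 at sma-9 and 4 at egl-17. The letters TGATTGAC of PBX with Meis-type proteins occurred there only at ceh-34, 1844 bp before its start, and at 13.7% of all genes. A match of letters is a description of the DNA and does not show that a protein sits there.

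Ordered by the best signal in the ranked list of 56499 peaks, sma-9 (189) exceeded 98% of all protein-coding genes and egl-17 (149) exceeded 96.6%. Then came fozi-1 (67, above 83.4% of genes), ceh-34 (59.6, 79.7%), egl-15 (50.7, 73.8%) and sem-2 (39.5, 58.8%). The genes mls-2 (32.5, 43.8%), hlh-8 (23.3, 24.5%) and mls-1 (21.8, 22.5%) followed, and let-381 had no ranked summit there. These percentages count a gene without a ranked summit as weaker than any gene with one, and 83.1% of all genes had one. The median best signal was 45.1 for the 10 genes and 35.2 for all genes, with genes without a ranked summit included as the lowest. A longer window can also hold a stronger best peak. The median window was 9.99 kb for the 10 genes and 8.03 kb for all genes. The values of the 10 genes thus ran from the strongest to the weakest parts of the genome's range.

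**Figure D3:**
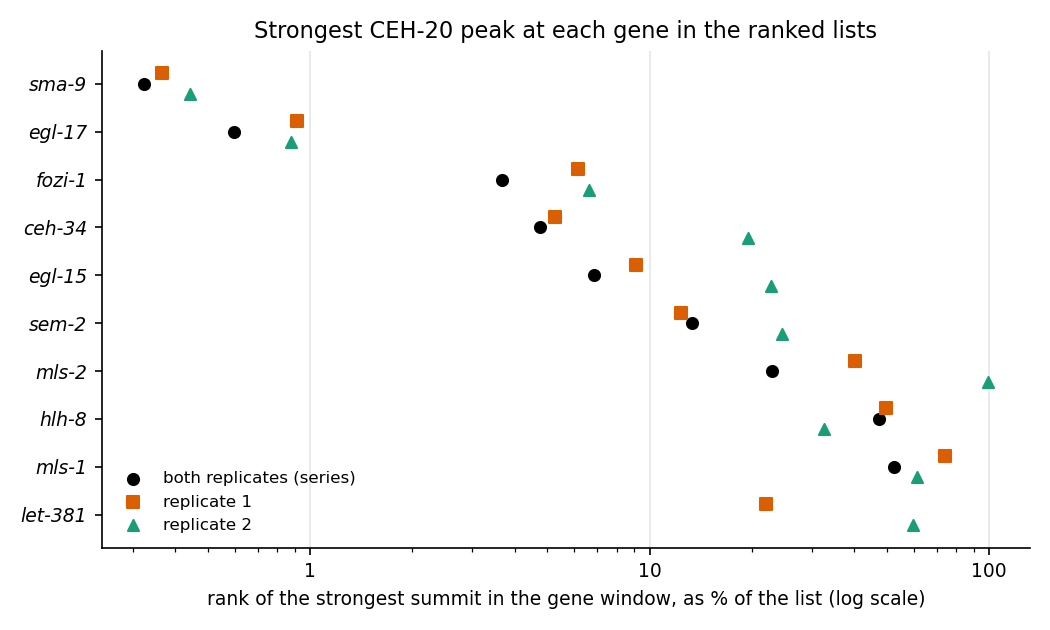
Rank of the strongest CEH-20 peak in the window of each of the 10 genes, as percent of the list (log axis, stronger to the left), in the ranked list of 56499 peaks of the series (circles) and in those of replicate 1 (squares) and replicate 2 (triangles). A gene's 3 points need not be the same place. sma-9 and egl-17 rank in the top 1% of each list, and let-381 has no circle.

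Length and chromosome bear on these counts. Windows of up to 10 kb held a conservative peak at 1 of 5 of the 10 genes, against 15.7% of all genes of that class, and longer windows at 2 of 5, against 27.2%. Of the 5 genes on X, hlh-8, mls-2, sma-9, egl-15 and egl-17, 2 had a conservative peak, against 25.2% of all genes on X. Per 10 kb of window the 10 genes had 0.463 conservative summits, and all genes had 0.266. Ranked summits were 6.17 per 10 kb at the 10 genes and 5.73 at all genes. Both densities of the 10 genes rest on sma-9, which held 4 of the 6 conservative and 27 of the 80 ranked summits. Without it the other 9 genes had 0.182 conservative and 4.82 ranked summits per 10 kb. The values of all genes, 0.266 and 5.73, still include the genes with the most summits, so nothing is read from this difference.

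Within 50 bp of the summit, the PBX and Hox letters TGATNNAT were found at 1 of the 6 conservative peaks of the 10 genes, at sma-9 with signal 74.2, 16 bp from the summit. They were found at 10.2% of all conservative peaks and 7.44% of all ranked peaks. The Meis core TGACAG was found at 1 of 6, that of egl-17, inside the tRNA gene and 22 bp from the summit, against 4.88% of all conservative peaks. The PBX and Meis letters TGATTGAC, found at 0.753% of all conservative peaks, were at none of the 6.

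The letters GAGAGA, which were searched as a simple repeat, lay at 3 of the 6 peaks. These were the leading 2 of sma-9 and that of egl-17, which are also the 3 in both replicates' lists. The share with GAGAGA among all conservative peaks in both lists is not given here, so nothing is read from this. Among all conservative peaks 22.3% held GAGAGA, and among ranked peaks 7.83%. The E-box CATATG, the kind bound by Twist proteins such as HLH-8, was at none of the 6 and at 1.31% of all conservative peaks. The E-box CACGTG and the forkhead core GTAAACA were at none of the 6, and at 5.43% and 1.39% of all. The median GC content was 47.5% at the 6 peaks and 46.5% at all conservative peaks.

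Genes that act with the 10 in the M lineage held conservative peaks at 5 of 16 (31.2%), against 18.2% of all genes. The strongest were at sys-1 (a beta-catenin, signal 168), ceh-20 itself (168), the Meis-type partner gene unc-62 (165) and the Hox gene lin-39 (82.6). The Hox gene mab-5 (66.1) was the other one. The replicates' thresholded lists held a peak at 4 of the 16 (25%) in replicate 1, against 10.3% of all genes, and at 5 of the 16 (31.2%) in replicate 2, against 12.4%. The sys-1 summit lay nearer to the start of eif-3.C, 232 bp away. The replicates gave 67.5 in replicate 1 and 96.6 in replicate 2 at ceh-20, and 109 and 60.4 at unc-62, so their order was reversed between the replicates.

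Against 18.2% of all genes, 5 of 12 genes (41.7%) of the pathway of EGL-17 and EGL-15 had a conservative peak in their windows. These were led by mpk-1 (a MAP kinase, signal 166), lin-45 (Raf, 89.6), the other ligand gene let-756 (79.2) and let-60 (Ras, 66.9), with clr-1 (61.7) the other one. The summit at let-60 lay inside the noncoding RNA gene ZK792.10 and nearer to ZK792.12. In the thresholded list of replicate 1, 2 of the 12 (16.7%) had a peak, against 10.3% of all genes, and in that of replicate 2, 4 of the 12 (33.3%), against 12.4% of all genes.

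Of the BMP pathway, in which SMA-9 acts, 5 of 16 genes (31.2%) had one. These were led by sma-4 (a Smad, signal 220), lon-2 (a glypican, 98), crm-1 (71.4) and the ligand gene dbl-1 (67.7), with tsp-21 (a tetraspanin, 57.4) the other one. The summits at sma-4 and lon-2 lay nearer to the starts of R12B2.7 and aman-1. The summit at lon-2 lay inside the noncoding RNA gene C39E6.12 and that at tsp-21 inside C17G1.9. In the thresholded list of replicate 1, 1 of the 16 (6.25%) had a peak, against 10.3% of all genes, and in that of replicate 2, 2 of the 16 (12.5%), against 12.4%. Beside the shares from the conservative list stands the 18.2% of all genes. The median windows of the M lineage, FGF and BMP genes were 11.7, 12.7 and 10.8 kb, longer than the 8.03 kb of all genes. Of all genes with windows over 10 kb, 27.2% had a conservative peak. The genes of all these lists were chosen by name from known biology, with earlier results of these data known, and the shares are a description.

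**Figure D4:**
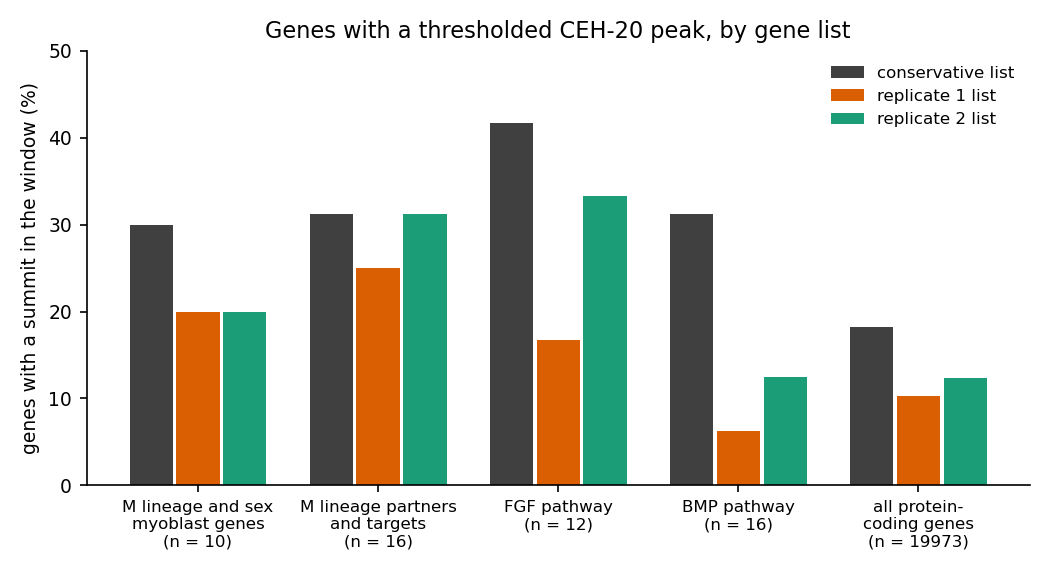
Percent of genes with a CEH-20 peak in the window in the conservative list (dark bars) and in the thresholded lists of replicate 1 (orange) and replicate 2 (green). In the conservative list the values are those of the 10 mesoderm genes (30), the M lineage partners (31.2), the FGF pathway (41.7) and the BMP pathway (31.2), beside all protein-coding genes (18.2). Bars start at 0, and no error is drawn since both samples belong to 1 group.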

How the data were processed

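ChIP-seq peak lists of the 2 replicates were used as deposited, on assembly ce11 per the file descriptions. Neither aligner nor peak caller is named: both are not given in the sources used here. Peaks were ranked by the authors by IDR, and the deposited score is scaled by it up to 1000. No peak of the conservative list scored under 830. The deposited signal is the authors' strength of a peak. They also deposited a −log10 q-value and, in the ranked lists, a −log10 IDR, from which the IDRs printed were taken. The conservative list matched the ranked list of 56499 peaks by position and score.

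Summits were counted in gene windows from Ensembl release 115, with 1-based coordinates and genome sequence from RefSeq. A peak was shared at an overlap of 1 bp. Motif letters were looked for on either strand, up to 50 bp from summits. There is 1 group, so counts stand beside those of all genes, without tests. The counting steps were tested on simulated data. The 10 genes are all named, as are up to 4 genes of each other list by signal. Any gene whose start is nearer a conservative summit described here is named too, as are nearer genes at some other summits. The genes mab-5, clr-1 and tsp-21 fall outside that rule and were added after their values were seen. The genes and lists were chosen with earlier results of these data known. The splits by window length and chromosome X, and the densities without sma-9, were chosen after seeing the data. Python 3.11.15, numpy 2.4.6, pandas 2.3.3 and matplotlib 3.10.9 were used.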

Additional observations from a re-analysis of the deposited data

How the results depend on the processing

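The 10 genes kept 2 or 3 with a conservative peak under every alternative run, sma-9 always among them; fozi-1 had none in either replicate's list alone, above the median signal, near transcript starts or by nearest start, and egl-17 had none without tRNA peaks. The 6 peaks became 3 in either replicate alone (range 3 to 3) and 3 above the median signal. The share of all genes, 18.2%, became 10.3% to 12.4% in single replicates, 10.8% above the median signal, 9.55% near transcript starts, 25.4% with 10 kb upstream, 3.54% in gene bodies, 9.06% by nearest start and 16.8% without tRNA peaks. It was 18.8% in the larger list. Of the M lineage partners 5 became 3 above the median signal, 3 near starts and 3 in gene bodies. The FGF genes (5) became 2 to 4 in single replicates, 2 above the median signal, 1 near starts and 1 in gene bodies. The BMP genes (5) became 1 to 2 in single replicates, 2 above the median signal, 2 near starts, 9 with 10 kb upstream, 3 in gene bodies and 3 by nearest start. Within 100 bp of the summit 2 of 6 peaks held TGATNNAT. Windows and lists differ in size by construction; otherwise the cause was not tested. Merging overlapping peaks and leaving out tRNA peaks were added after seeing the data. No paired analysis was possible because both samples belong to 1 group. Depth is unknown.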
